A study of Mus musculus with 6 samples.

Results

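The choroid plexus genes described here were Ttr, Kl, Folr1, Clic6, Aqp1, Kcne2, Otx2, Prlr, Slc4a5 and Sostdc1, which are 10 of the 24935 genes in the deposited table of normalized counts. They were read one library at a time, as a check of which tissue the dissected samples held. The set was chosen by gene names after levels of these genes in the same 6 libraries had been seen, so their values are given as a description and no test was made on them. C57BL/6 pups of both sexes were kept with their dams in 85% O2 (hyperoxia-exposed) or in room air (air-exposed) from P2 to P14, and RNA was sequenced from the left hippocampus at P14 in 3 libraries per group. Each column of the table names a group and a replicate from 1 to 3 without tying it to an animal, and the sources used here do not say whether pups in a group were from different litters, so spreads and p-values cover only these 6 libraries. Sex was not given for the single libraries.

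The choroid plexus is a fringe of vascular tissue in the brain ventricles whose epithelial cells secrete cerebrospinal fluid and form the barrier between blood and that fluid. In the lateral ventricle it is attached by a thin membrane along the fimbria, the fibre tract at the edge of the hippocampus, and a hippocampus can be dissected with or without a piece of it. Ttr, which encodes transthyretin, the carrier of thyroid hormone and of the retinol-binding protein, is among the most abundant transcripts of this epithelium and is made by few other cells of the brain.

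The 6 libraries held 30384052 to 38746972 reads on genes. Replicates of a group were farther apart than counting noise allows (chi-square per gene between 6.538 and 47.21), and each was kept as its own replicate. All 10 choroid plexus genes were found in the table, and all 10 passed the filter of a mean normalized count of at least 10 that 17778 genes passed. That mean runs over all 6 libraries, and Slc4a5 and Otx2 passed only through their high value in hyperoxia library 3. A normalized count here is a read count divided by a size factor for the library.

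Ttr (ENSMUSG00000061808.3) had normalized counts, in the order of the library numbers, of 272, 167 and 887 in air and of 350, 183 and 7454 in hyperoxia. Hyperoxia library 3 thus stood 27.4-fold above the median of the 5 other libraries and 8.4-fold above the next highest, which was air library 3. The other 4 libraries lay within 2.1-fold of each other, and air and hyperoxia libraries were mixed among them. The air mean was 442 ± 389 (SD, n = 3), the hyperoxia mean was 2663 ± 4151 (SD, n = 3), and the groups overlapped. Behind the highest value stood 7723 reads, with an exact Poisson 95% interval of 7550 to 7900, and behind the lowest value in air stood 164 reads, with an interval of 140 to 191. Such intervals cover counting error only, and the distance between libraries was far outside them. In bulk tissue, fewer cells of a type and less RNA per cell cannot be told apart, so a level is a property of the library and not of a cell.

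**Figure D1:**
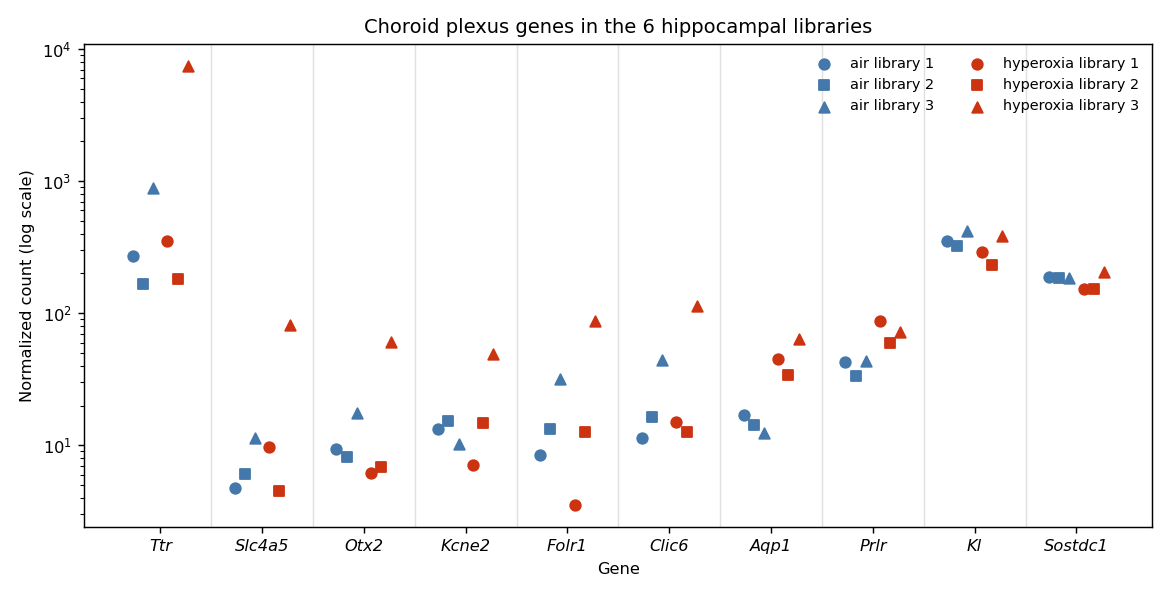
Normalized counts (vertical log axis) of the 10 choroid plexus genes (horizontal axis) in each library, with air libraries in blue, hyperoxia libraries in red and 1 marker shape per library number. Hyperoxia library 3 is the highest point for 8 of the 10 genes, the exceptions being Prlr and Kl, and Ttr spans from 167 to 7454.

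The other secreted or shed proteins of the set did not follow Ttr in size. Kl, which encodes Klotho, the co-receptor for the hormone FGF23, and which is also made by hippocampal neurons, had 350, 325 and 421 normalized counts in air and 289, 230 and 385 in hyperoxia. Its highest and lowest libraries differed 1.83-fold, with the library numbered 3 the highest of each group. Sostdc1, a secreted antagonist of BMP and Wnt signals, had 188, 186 and 184 in air and 152, 153 and 206 in hyperoxia. Its air libraries were nearly equal, at 186 ± 2.29 (SD, n = 3), and hyperoxia library 3 lay only 1.12-fold above the median of the 5 others. Both genes were well counted in every library, and neither total differed between libraries on the scale of that in Ttr. Totals in bulk tissue can hold reads of other cells, such as neurons for Kl, so the choroid plexus part of either gene was not measured.

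The receptors of the set behaved in different ways. Folr1, the folate receptor alpha that carries folate into cerebrospinal fluid, had 8.48, 13.2 and 31.8 normalized counts in air and 3.54, 12.5 and 87.8 in hyperoxia. As for Ttr, hyperoxia library 3 was the highest and air library 3 the next, and hyperoxia library 1 was the lowest of all. Prlr, the prolactin receptor, had 42.4, 33.6 and 43.1 in air and 87.5, 60 and 72.4 in hyperoxia. Here the groups did not overlap, every hyperoxia library was above every air library, and hyperoxia library 3 was the middle one of its group. Prlr shares 203 exon bases on its strand with the gene model Gm21973, and Folr1 lies over Anapc15 on the other strand without sharing exon bases.

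The channels and transporters that move water and ions into the fluid gave the same 2 kinds of pattern. Slc4a5, a sodium bicarbonate cotransporter of the ventricular membrane, had 4.71, 6.11 and 11.3 normalized counts in air and 9.72, 4.53 and 81.1 in hyperoxia. Clic6, an intracellular chloride channel protein, had 11.3, 16.3 and 44.1 in air and 15, 12.5 and 114 in hyperoxia. For both genes hyperoxia library 3 was the highest and air library 3 the next, and hyperoxia libraries 1 and 2 both lay below air library 3.

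Kcne2, a beta subunit of potassium channels, had 13.2, 15.3 and 10.3 normalized counts in air and 7.07, 14.7 and 49.2 in hyperoxia. Hyperoxia library 3 was again the highest, 3.22-fold above the next, but air library 3 was the lowest of its group. Aqp1, the water channel of the epithelium's ventricular face, had 17, 14.2 and 12.3 in air and 45.1, 34 and 63.7 in hyperoxia. Its groups did not overlap, with an air mean of 14.5 ± 2.33 (SD, n = 3) against 47.6 ± 15 (SD, n = 3) under hyperoxia, and air library 3 was the lowest of all 6. Aqp1 and Prlr were the only 2 of the 10 genes whose hyperoxia libraries all lay above the air libraries, and none of the 10 had them all below. Of all 17778 genes, 22.3% were higher in hyperoxia without overlap and 23.8% were lower without overlap, so 2 of 10 is near the background.

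Otx2, a homeobox transcription factor needed to form and keep the epithelium, had 9.42, 8.14 and 17.5 normalized counts in air and 6.19, 6.79 and 60.8 in hyperoxia. Again hyperoxia library 3 was the highest and air library 3 the next, and the remaining hyperoxia libraries were the lowest. Otx2 shares 154 exon bases with the antisense gene Otx2os1 and 168 exon bases on its strand with the gene model Gm49154, and the treatment of such reads in counting was not stated.

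Kcne2 and Clic6 lie on the same chromosome, with the gene ends 187.6 kb apart (Kcne2 at chr16:92292389-92298129 and Clic6 at chr16:92485736-92541243, both on the plus strand, GRCm38). The genes between them that passed the filter did not share the high value of hyperoxia library 3. Relative to the median of the 5 other libraries it stood at 0.887 for Smim11, at 0.878 for the antisense gene 1700048M11Rik and at 0.993 for Rcan1, against 3.73 for Kcne2 and 7.58 for Clic6. Kcne1, another potassium channel beta subunit in this stretch, was under the filter, with 3.86 normalized counts in hyperoxia library 3 and 0 to 5.13 in the others.

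The starts of 6 of the 10 genes (Kl, Aqp1, Kcne2, Otx2, Prlr and Slc4a5) were in the RefSeq promoter table for GRCm38.p6, with 12 promoters in all. Ttr, Folr1, Clic6 and Sostdc1 were not matched. The 250 bases before the start are shown for Kcne2, Otx2 and Aqp1. All 3 were highest in hyperoxia library 3, and Aqp1 also parted the groups. None of the 3 windows overlaps an annotated exon in GENCODE M21, and capitals mark the letters TATAAA. The Kcne2 window is chr16:92292139-92292388 on the plus strand, the Otx2 window is chr14:48667645-48667894 on the minus strand and the Aqp1 window is chr6:55336049-55336298 on the plus strand.
Kcne2 promoter: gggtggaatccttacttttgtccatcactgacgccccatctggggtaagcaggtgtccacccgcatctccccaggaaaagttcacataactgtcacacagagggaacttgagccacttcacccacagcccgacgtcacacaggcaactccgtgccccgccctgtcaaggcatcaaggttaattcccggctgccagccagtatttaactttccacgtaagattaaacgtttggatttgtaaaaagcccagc
Otx2 promoter: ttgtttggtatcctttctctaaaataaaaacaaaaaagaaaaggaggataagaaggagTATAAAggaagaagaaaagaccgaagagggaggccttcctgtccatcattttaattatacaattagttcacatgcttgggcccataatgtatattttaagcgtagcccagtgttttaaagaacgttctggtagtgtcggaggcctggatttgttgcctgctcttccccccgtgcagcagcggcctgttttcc
Aqp1 promoter: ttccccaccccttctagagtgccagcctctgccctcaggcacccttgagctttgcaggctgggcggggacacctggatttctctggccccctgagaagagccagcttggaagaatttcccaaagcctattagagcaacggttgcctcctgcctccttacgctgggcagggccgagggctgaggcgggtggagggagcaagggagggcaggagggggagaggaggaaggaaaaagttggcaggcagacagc
These windows were searched on both strands for TAATCC, the core letters bound by OTX2 protein, and for TATAAA, with no overlap between the searched words. TAATCC was in 1 of the 12 promoters, another start of Otx2, where its first base stood 211 bases before the start on the minus strand, against 6.25% of 32851 mouse promoters searched over the same length. TATAAA was in 2 of the 12, in the Otx2 window shown, 192 bases before the start, and on the minus strand in the one of Slc4a5, 127 bases before the start, against 12.4% of all promoters. Neither word was found in the Kcne2 and Aqp1 windows shown, which says only that these letters are not there.

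Compared per length, as RPKM (reads scaled to exon length in kilobases and to the library's reads on genes), the levels ran from Ttr, with a median of 7.54 over the 6 libraries, through Sostdc1 at 2.88 and Kl at 0.998 to the 7 others. Those were Aqp1 at 0.276, Kcne2 at 0.222, Folr1 at 0.159, Clic6 at 0.115, Prlr at 0.0961, Otx2 at 0.0573 and Slc4a5 at 0.0395 RPKM. Ttr had 3.91 RPKM in its lowest library and 186 in its highest, and was above every other gene of the set in all libraries, since the highest of Sostdc1 was 3.41 RPKM. Sostdc1, from 2.49 to 3.41 RPKM, lay above Kl, from 0.716 to 1.26, without overlap, while the highest library of Aqp1, at 0.717 RPKM, reached the lowest of Kl. From Kl down, each neighbour in this order overlapped the next in its range over libraries, so the lower part of the order is not settled by these samples.

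Relative to the median of the 5 other libraries, hyperoxia library 3 was at least 2-fold higher for 7 of the 10 genes (Ttr, Slc4a5, Clic6, Otx2, Folr1, Aqp1 and Kcne2), and so were 2.82% of all 17778 genes. For air library 3 the same held for 4 of the 10 genes (Ttr, Folr1, Clic6 and Otx2), against 1.21% of all genes. For hyperoxia library 1 it held for 2 genes of the set, for hyperoxia library 2 for 1 gene, and for air libraries 1 and 2 for none. Since the set was chosen with these values known, these counts describe where its genes were high and are no test of it. In addition, Slc4a5 and Otx2 passed the filter only through hyperoxia library 3, a library in which they are counted here. Just inside the limit for hyperoxia library 3 was Kcne2 at 3.73-fold, and just outside it was Prlr at 1.68-fold.

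A stricter reading, chosen after the values were seen, asked where hyperoxia library 3 was at least 2-fold above the highest of the 5 other libraries. Of 17778 genes 28 met it, and 6 of them were in the set: Ttr, Slc4a5, Otx2, Kcne2, Folr1 and Clic6, at places 2, 4, 7, 8, 11 and 12 of all genes ordered by this ratio. Places 3 and 6 were taken by Tmem72, with 82 normalized counts against 2.26 to 10.4 in the others, and by Mfrp, a membrane frizzled-related protein, with 44.4 against 3.4 to 9.72. Places 1 and 5 were taken by genes of neutrophils, Ngp with 72.4 against 2.65 to 8.21 and S100a9, a calcium-binding protein, with 48.3 against 0 to 6.79. Slc4a5, Otx2, Tmem72, Mfrp, Ngp and S100a9 passed the filter only through hyperoxia library 3, so their entry into this ranking depended on the value ranked. The part of blood or other cells in the high choroid plexus values of this library was not tested. Outside this group Aqp1 was at place 205, Sostdc1 at 1775, Kl at 6490 and Prlr at 9457.

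**Figure D2:**
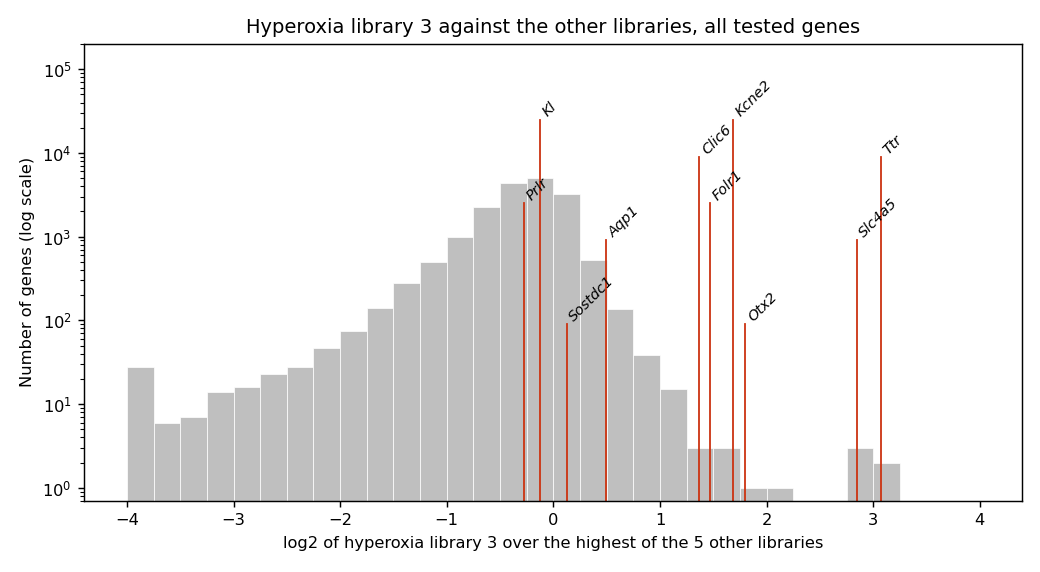
Number of genes (vertical log axis) by the log2 ratio of hyperoxia library 3 to the highest of the 5 other libraries (horizontal axis, bins of 0.25, the lowest bin also holding all lower ratios), for 17778 genes, with red lines at the 10 choroid plexus genes. Ttr and Slc4a5 lie near the right end and Otx2, Kcne2, Folr1 and Clic6 in the sparse right tail. Aqp1, at place 205, lies to the right of most genes, and Sostdc1, Kl and Prlr lie in the body of the distribution.

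Summed over the 10 genes, the normalized count was 917.3, 784.6 and 1662 in air and 965.3, 711.0 and 8574 in hyperoxia. The highest and lowest libraries differed 12.1-fold, with an interval of 11.1 to 13.1 for counting error, while the 4 libraries other than the ones numbered 3 lay within 1.36-fold. As a share of the reads on genes, the set took 0.0254% in hyperoxia library 3 (exact Clopper-Pearson 95% interval 0.0248 to 0.0259%), 0.00463% in air library 3 (0.00441 to 0.00486%) and 0.00207 to 0.00287% in the other 4. The set was thus a small part of every library, the highest included.

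The make-up of the sum also differed between libraries. Ttr gave 86.9% of the reads of the set in hyperoxia library 3 and 53.4% in air library 3. In the libraries numbered 1 and 2 its share was 29.7% and 21.3% for air and 36.3% and 25.8% for hyperoxia. Folr1, Clic6, Kcne2, Otx2 and Slc4a5 together had 47.09, 59.02 and 115.0 normalized counts in air and 41.55, 50.95 and 392.8 in hyperoxia, a 9.46-fold span. Kl, Prlr, Sostdc1 and Aqp1 together spanned 1.52-fold. That last sum is mostly Kl and Sostdc1, and Aqp1 alone spanned 5.17-fold. The set was divided in this way, after the values were seen, by whether hyperoxia library 3 was at least 2-fold above every other library. Aqp1 and Sostdc1 were also highest in that library, without reaching this ratio.

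In both libraries numbered 3, the amounts above the other 4 libraries can be set beside that of Ttr. Taking the median of those 4 libraries away, Ttr had an excess of 659 normalized counts in air library 3 and of 7227 in hyperoxia library 3. Per 1000 of that excess, Folr1 had 32.4 in air library 3 and 10.7 in hyperoxia library 3, Clic6 had 46.1 and 13.9, and Otx2 had 15.1 and 7.38. Slc4a5 had 8.93 and 10.5, and Kcne2 had -5.59 and 4.88. Of the 4 other genes, Kl had 173 and 10.8, Sostdc1 21.6 and 4.99, Aqp1 -19.9 and 5.29 and Prlr -12.2 and 2.93. In hyperoxia library 3 the excess of Kl, at 78.3 normalized counts, was as large as that of Folr1, at 77.4, but stood on a median of 307 against 10.5. All 10 genes were above that median in hyperoxia library 3, and 3 of them, Aqp1, Prlr and Kcne2, were below it in air library 3. Relative to Ttr, the values of Folr1, Clic6 and Otx2 were thus lower in hyperoxia library 3, and those of Slc4a5 were near each other. For Folr1, Clic6, Otx2 and Slc4a5 the excess in air library 3 was only 5.89 to 30.4 normalized counts, and these ratios were not tested.

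As a group comparison, hyperoxia minus air on the scale of log2(normalized count + 1), the differences ran from 1.61 (SE 0.29) for Aqp1, 1.19 (SE 1.16) for Ttr, 1.10 (SE 0.85) for Slc4a5 and 0.86 (SE 0.21) for Prlr down to -0.14 (SE 0.14) for Sostdc1 and -0.30 (SE 0.18) for Kl. In between were Clic6 at 0.46 (SE 0.77), Kcne2 at 0.43 (SE 0.58), Otx2 at 0.33 (SE 0.75) and Folr1 at 0.10 (SE 0.92). The median over the 10 genes was 0.44, against -0.01 over all tested genes. The standard errors were 0.58 to 1.16 for the 6 genes at least 2-fold above every other library in hyperoxia library 3, and 0.14 to 0.29 for the 4 others. Fitted to the recovered reads by edgeR, which weighs the group means on the linear scale, the differences were larger for the 6, at 2.59 for Ttr, 2.12 for Slc4a5, 1.09 for Otx2, 1.0 for Clic6, 0.97 for Folr1 and 0.87 for Kcne2, and the median over the 10 genes was 0.98.

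Without hyperoxia library 3 the difference turned below 0 for 6 genes: -0.44 for Ttr, -0.04 for Slc4a5, -0.53 for Clic6, -0.29 for Kcne2, -0.69 for Otx2 and -1.07 for Folr1. The median over the 10 genes was then -0.36. Aqp1 stayed at 1.38 and Prlr stayed above 0, and Kl and Sostdc1 stayed below it. Without both libraries numbered 3, a choice made after seeing the data, the median was -0.14 with Ttr at 0.25, Slc4a5 at 0.27, Aqp1 at 1.28 and Prlr at 0.92. Clic6 was then at 0.01, so it, Ttr and Slc4a5 were above 0 again, and Kcne2, Otx2 and Folr1 were below it, at -0.43, -0.38 and -0.57. The sign for Folr1 also turned without air library 1 (-0.30) or air library 2 (-0.01). For Aqp1, Prlr, Kl and Sostdc1 the sign did not turn when any single library was left out.

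**Figure D3:**
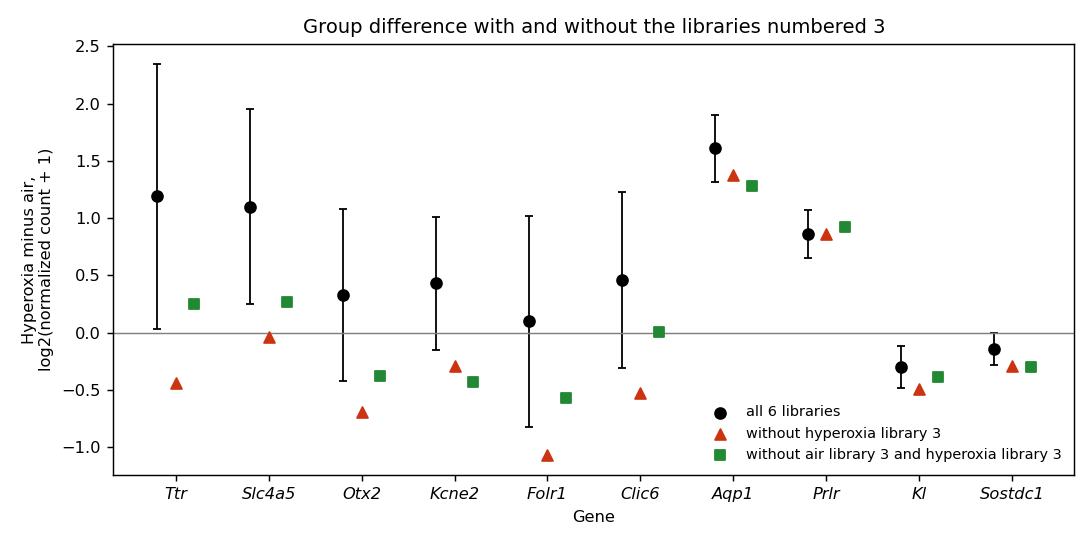
Hyperoxia minus air in log2(normalized count + 1) (vertical axis) for the 10 choroid plexus genes (horizontal axis), from all 6 libraries (black, bars are the standard error), without hyperoxia library 3 (red) and without both libraries numbered 3 (green). For Ttr, Slc4a5, Otx2, Kcne2, Folr1 and Clic6 the red point is below 0 while the black one is above it, and for Aqp1, Prlr, Kl and Sostdc1 all 3 points are on the same side.

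The spread over libraries was wide for most of the set. The highest and lowest libraries differed by at least 1 in log2(normalized count + 1) for 8 of the 10 genes, all but Kl and Sostdc1. The same held for 21.4% of all tested genes, whose median range was 0.56. Since the set was chosen with these values known, this count is a description and no test. Slc4a5 and Otx2 also passed the filter only through hyperoxia library 3, the library that sets their range. Among the 8, the span on the linear scale was 44.7-fold for Ttr, 24.8-fold for Folr1, 17.9-fold for Slc4a5, 10.1-fold for Clic6, 9.83-fold for Otx2, 6.96-fold for Kcne2, 5.17-fold for Aqp1 and 2.61-fold for Prlr. The spans of the lowest genes carry a wide counting error. The lowest value of Folr1, in hyperoxia library 1, stood on 4 reads, with an exact Poisson 95% interval of 1.09 to 10.2.

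Other genes of the choroid plexus were taken from 3 lists, which hold 49 names beyond the set. Of these, 48 were found, all but Otx2os1, and 38 passed the filter. In limma's test over all 17778 genes, 13 of the 38 were higher in hyperoxia, 2 were lower and 23 passed in neither direction at an adjusted p under 0.05, with a median difference of 0.42 in log2. Of all genes 14.9% were called higher and 15.6% lower. Without hyperoxia library 3, 12 of the 36 genes still tested were called higher and 2 lower. At least 2-fold above the median of the others were 9 of the 38 in hyperoxia library 3, against 2.82% of all genes. In hyperoxia libraries 1 and 2 there were 3 each, against 3.07% and 2.06%. Air library 3 had 1, against 1.21%, and air libraries 1 and 2 had 0, against 1.37% and 1.12%. Of the 9, Tmem72 passed the filter only through hyperoxia library 3.

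Among channels, transporters and enzymes, 2 of 16 tested genes were called higher and 2 lower. Slc31a1, the copper importer, had 1247, 1151 and 1241 normalized counts in air and 1604, 1758 and 1647 in hyperoxia, and was higher by 0.46 in log2 (SE 0.07, limma adjusted p = 0.0024). Slc13a4, a sodium-coupled sulfate transporter, was higher by 0.83 (SE 0.21, limma adjusted p = 0.016), with hyperoxia library 3 the lowest of its group, at 292 against 498 and 447. Car12, a carbonic anhydrase, fell from 1844 ± 81.8 (SD, n = 3) to 899 ± 179 (SD, n = 3), a difference of -1.06 in log2 (limma adjusted p = 0.00098), and Slc29a4, a monoamine transporter, fell from 3905 ± 308 to 2610 ± 349 (SD, n = 3), by 0.59 in log2 (limma adjusted p = 0.0032). In neither did hyperoxia library 3 stand apart, at 1022 for Car12 and 2394 for Slc29a4. The call for Slc13a4 was lost without air library 3 (limma adjusted p = 0.062) or hyperoxia library 1 (limma adjusted p = 0.069).

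Atp1b1, a sodium pump subunit of neurons as well as of the epithelium, Slc12a2, the sodium, potassium and chloride cotransporter, Trpm3, a cation channel, and Slc4a2, an anion exchanger, did not pass the test, with differences of -0.18, 0.18, 0.50 and -0.02 in log2. Without hyperoxia library 2 the first 3 of these passed (limma adjusted p = 0.038, 0.032 and 0.0017 in that order), and so did Atp1b1 and Trpm3 by DESeq2 on the recovered reads (adjusted p = 0.036 and 0.028). Trpm3 had its highest value in hyperoxia library 3, 1121 against 532 to 941 in the others, and so did Slc12a2, at 2583 against 1684 to 2277. Tmem72, the gene of this list that stood highest in hyperoxia library 3, had a group difference of 0.23 (limma adjusted p = 0.88).

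Among secreted and extracellular factors, 6 of 12 tested genes were called higher and none lower: Igf2, Igfbp2, Ace, Sulf1, Lbp and Col8a1. Igf2, a growth factor of choroid plexus and meninges, had 5113, 4552 and 4129 normalized counts in air and 7123, 7875 and 5263 in hyperoxia (0.54 in log2, SE 0.14, limma adjusted p = 0.018). Its carrier Igfbp2 had 1162, 1100 and 820 in air and 1853, 2495 and 1618 in hyperoxia (0.94, SE 0.17, limma adjusted p = 0.0037). In both, hyperoxia library 3 was the lowest of its group, whereas for Ttr it was the highest. The call for Igf2 was lost without air library 2, air library 3 or hyperoxia library 1, with a limma adjusted p of at most 0.074. Ace, the angiotensin-converting enzyme, differed by 0.66 (limma adjusted p = 0.012), Sulf1, a heparan sulfatase, by 0.84 (limma adjusted p = 0.0035) and Lbp, the lipopolysaccharide-binding protein, by 0.43 (limma adjusted p = 0.037). The call for Ace was lost without air library 2 (limma adjusted p = 0.055). The call for Lbp was lost without hyperoxia library 3 (limma adjusted p = 0.11) or without any other library but hyperoxia library 2, and its adjusted p ranged from 0.024 to 0.17 over the alternatives.

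Enpp2, which encodes the lysophospholipase D autotaxin, is abundant in choroid plexus and in oligodendrocytes and followed the pattern of Ttr on a smaller scale. It had 3758, 4257 and 4733 normalized counts in air and 3599, 3492 and 7524 in hyperoxia, and the group difference did not pass the test (0.11 in log2, limma adjusted p = 0.77). The collagen gene Col9a3 differed by 0.01 and the retinol dehydrogenase gene Rdh5 by -0.40 in log2, and neither passed the test, though Rdh5 did without hyperoxia library 2 (limma adjusted p = 0.027). Mia was listed at 0 in 2 libraries, air library 3 and hyperoxia library 3, the libraries with most Ttr, and had at most 3.77 normalized counts.

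Among genes of epithelial identity and junctions, 5 of 10 tested genes were called higher and none lower: Vat1l, Htr2c, Spint2, Cldn1 and Perp. Htr2c, the serotonin receptor most known for this epithelium but also made by neurons, had 908, 553 and 772 normalized counts in air and 1446, 1471 and 1064 in hyperoxia (0.85 in log2, SE 0.18, limma adjusted p = 0.0078). Cldn1, a claudin of tight junctions, had 99.8, 81.4 and 108 in air and 303, 168 and 220 in hyperoxia (1.22, SE 0.21, limma adjusted p = 0.0031). Vat1l differed by 1 in log2 (limma adjusted p = 0.0011), Perp, a desmosome protein, by 0.65 (limma adjusted p = 0.0059) and Spint2, a protease inhibitor, by 0.41 (limma adjusted p = 0.0099). In none of the 5 was hyperoxia library 3 the highest library.

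Cldn2, the claudin that marks the leaky tight junctions of this epithelium, instead had 18.8, 30.5 and 21.6 normalized counts in air and 15.9, 14.7 and 62.7 in hyperoxia. Hyperoxia library 3 was the highest, 3.33-fold above the median of the others, and the group difference was 0.09 (limma adjusted p = 0.91). Cab39l and Msx1, a homeobox gene, differed by 0.22 and -0.30 in log2 and did not pass, though Msx1 did without hyperoxia library 2 (limma adjusted p = 0.019). In this list 3 genes were at 0 in at least 1 library: Krt18 in air library 1, Prr32 in air library 2 and hyperoxia library 2, and Cox8b in hyperoxia libraries 2 and 3. Prr32 had 29.9 normalized counts in hyperoxia library 3 and at most 6.16 in any other, and Krt18 had 14.5 in hyperoxia library 3 and 13.3 in air library 3, so both were highest where Ttr was.

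**Figure D4:**
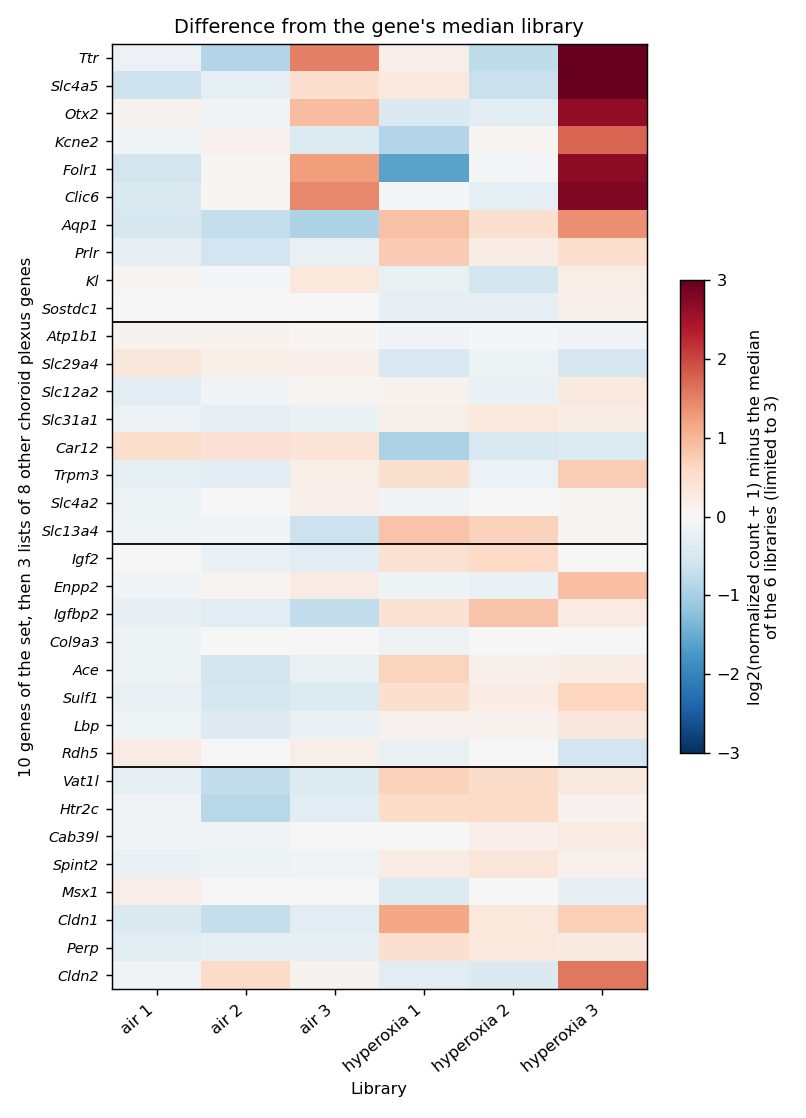
Colour gives log2(normalized count + 1) minus the gene's median over the 6 libraries (limited to 3 in either direction), with libraries as columns and genes as rows. The top block is the 10 choroid plexus genes of the set, and below it are the 8 genes of highest mean in each list of other choroid plexus genes (channels, transporters and enzymes, then secreted factors, then epithelial identity and junctions). The strong red cells are in the hyperoxia library 3 column for Ttr, Slc4a5, Otx2, Kcne2, Folr1, Clic6 and Cldn2, while Vat1l, Htr2c, Cldn1 and Igfbp2 are red in all 3 hyperoxia columns.

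The genes outside the set whose levels over the 6 libraries were most like its mean profile were looked for among 3797 genes with a mean of at least 10 and a range of at least 1 in log2. The mean profile was -0.51, -0.51 and 0.17 in air and -0.40, -0.48 and 1.73 in hyperoxia, so a high correlation with it mostly says that a gene was high in hyperoxia library 3. By Pearson's r over 6 libraries, the nearest were Chrnb3 (0.987), Uckl1os (0.971), Enpp2 (0.965), 4833412K13Rik (0.959), Gm10060 (0.95), F5 (0.949), Rad51ap2 (0.949), Cfap44 (0.946), Gm9833 (0.942) and Cd79a (0.937), and 21 genes had an r above 0.9. Of these 10, Enpp2 and the coagulation factor gene F5 were on the choroid plexus lists. Chrnb3, a nicotinic receptor subunit, had 20.7, 18.3 and 27.7 normalized counts in air and 22.1, 20.4 and 47.3 in hyperoxia. Cd79a, a B cell receptor component, had 21.2 in hyperoxia library 3 and 9.16 to 10.2 in the others. It passed the filter only through hyperoxia library 3, so its entry here depended on the value behind its correlation.

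Within the set, each gene's own r with that mean, to which it contributes, was 0.98 for Ttr, Otx2 and Slc4a5, 0.96 for Clic6, 0.87 for Folr1 and 0.82 for Kcne2. It was 0.63 for Sostdc1, 0.54 for Aqp1, 0.53 for Kl and 0.36 for Prlr. Within each library all genes share 1 size factor, and with 6 points of which 1 is far out these values are a description.

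Cell types that lie beside the choroid plexus or the hippocampus were read from 8 lists with 71 tested genes, of which 22 were called higher and 18 lower. Over all genes, 14.9% were called higher and 15.6% lower, the background for the counts of each list below. Ependyma, the ciliated lining of the ventricle that borders the plexus, had 0 of 12 tested genes higher and 4 lower. Its summed normalized count was 921 to 1187 in air and 576.3 to 933.4 in hyperoxia, with hyperoxia library 3 at 933.4, only 1.01 times the median of the 5 others. Foxj1, the master factor of motile cilia, fell from 380 ± 45.4 (SD, n = 3) to 259 ± 43.2 (SD, n = 3), by 0.56 in log2 (limma adjusted p = 0.018), and the cilium gene Rsph1 fell by 0.85 (limma adjusted p = 0.0042). The call for Foxj1 was lost without air library 1, air library 3 or hyperoxia library 1, with a limma adjusted p of at most 0.075. So the library highest in Ttr was the highest of the hyperoxia libraries in ependymal genes but within the range of air.

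Genes of meninges and stromal fibroblasts were higher in hyperoxia for 8 of 11 tested and lower for 0, with sums of 4329 to 5516 in air and 6117 to 9306 in hyperoxia. Hyperoxia library 3 had the lowest sum of its group, 6117, which is 0.679 times the mean of the other 2 hyperoxia libraries. Col1a1 had 1397, 1231 and 1139 normalized counts in air and 2240, 2168 and 1539 in hyperoxia (0.64 in log2, limma adjusted p = 0.0086), and Col1a2 differed by 1.09 (limma adjusted p = 0.0011). Of the genes called higher in the choroid plexus lists, Igf2, Igfbp2, Slc13a4, Vat1l, Htr2c, Spint2 and Perp were also lowest in hyperoxia library 3 within their group. For Perp the margin was small, at 135 against 138 in hyperoxia library 2. Slc29a4, which was called lower in hyperoxia, was lowest there too, at 2394 against 2424 in hyperoxia library 1. The part of meningeal tissue in the values of these genes was not tested.

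Endothelial genes were higher for 5 and lower for 2 of 9 tested, with sums of 10420 to 10630 in air and 11780 to 13690 in hyperoxia, among them Slco1c1, a thyroid hormone transporter of brain vessels, at 0.47 (limma adjusted p = 0.0028), and Cldn5 at 0.57 (limma adjusted p = 0.003). Erythroid genes were higher for 1 and lower for 1 of 5, with sums of 1748 to 2835 in air and 2527 to 4042 in hyperoxia. Hba-a1 differed by 0.90 (limma adjusted p = 0.012), and Hbb-bs by 0.64 without passing (limma adjusted p = 0.076). Without air library 1 the former did not pass (limma adjusted p = 0.058), and the latter passed without air library 2 (0.035) or hyperoxia library 3 (0.029). In hyperoxia library 3 the erythroid sum was 2584, which is 1.02 times the median of the 5 others. The single genes were split there, with Hba-a1 at 1.31 and Hbb-bs at 0.89 times that median.

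Oligodendrocyte genes, the myelin genes of tracts such as the fimbria, were lower for 5 of 6 tested and higher for 0, with sums of 211400 to 321800 in air and 144700 to 177400 in hyperoxia. Mbp, a myelin protein gene, differed by -0.73 (limma adjusted p = 0.01), and its call was lost without air library 2 (limma adjusted p = 0.053). In hyperoxia library 3 the sum was 176600, within its group and 0.835 times the median of the 5 others, and in air library 3 it was the highest of all.

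For the lists of 2 neighbouring brain regions, the summed level of every hyperoxia library was above that of every air library, while about as many single genes passed the test as did not. Among all 17778 single genes, 22.3% were higher in hyperoxia without overlap. For thalamus and habenula, 4 of 9 tested genes were called higher and 0 lower, with sums of 2932 to 3233 in air and 4422 to 5832 in hyperoxia. Slc17a6, a vesicular glutamate transporter, had 630, 555 and 593 normalized counts in air and 2037, 2186 and 1675 in hyperoxia (1.72 in log2, SE 0.11, limma adjusted p = 0.00012), and Prkcd differed by -0.21 (limma adjusted p = 0.37). For striatum, 4 of 7 were higher and 0 lower, with sums of 844.6 to 867.4 in air and 1341 to 2181 in hyperoxia. Rgs9, a regulator of G protein signals in striatal neurons, had 338, 345 and 363 in air and 502, 462 and 525 in hyperoxia (0.51, SE 0.09, limma adjusted p = 0.004). Hyperoxia library 3 had the lowest striatal sum of its group, so the order of the hyperoxia libraries was not that of Ttr.

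Genes of hippocampal principal neurons, the tissue named by the labels, were lower for 6 of 12 tested and higher for 0, with sums of 49220 to 50560 in air and 33160 to 49030 in hyperoxia. They were high in every library, and hyperoxia library 3 had the highest sum of its group, 49030, beside the air range. Zbtb20 had 14201, 13801 and 13294 normalized counts in air and 10223, 8557 and 17358 in hyperoxia (-0.26 in log2, limma adjusted p = 0.37), and Wfs1 had 8307, 8479 and 7362 in air and 9058, 4554 and 6417 in hyperoxia (-0.32, limma adjusted p = 0.25). Without hyperoxia library 3, 10 of the 12 were called lower, Zbtb20 among them with a difference of -0.56 (limma adjusted p = 0.0019, from 0.0019 to 0.84 over the alternatives). Wfs1 passed without hyperoxia library 1 (limma adjusted p = 0.028). The library with most Ttr was thus also the highest hyperoxia library in the sum of these neuronal genes, though not in each of them, as Wfs1 shows. The part of that library in the group differences of other genes was not tested.

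**Figure D5:**
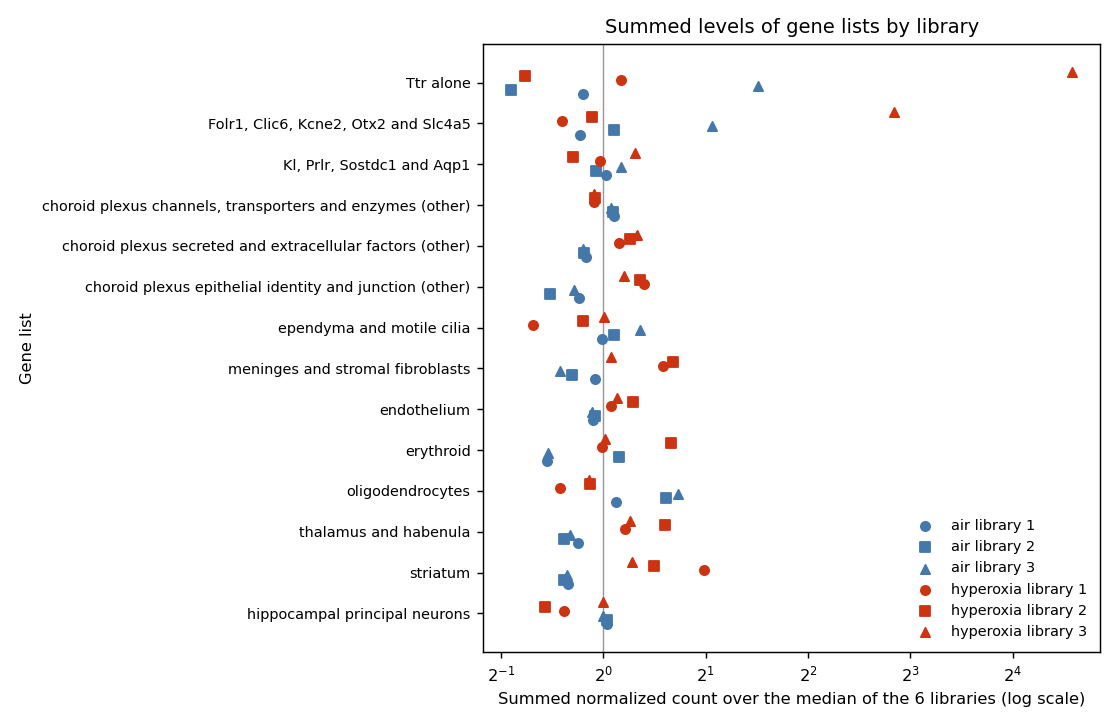
Summed normalized count of each gene list over the median of the 6 libraries (horizontal log axis), for Ttr, for the other genes of the set in 2 groups and for the 11 lists named in the text, with 1 marker per library (blue air, red hyperoxia). Hyperoxia library 3 is far to the right for Ttr and for Folr1, Clic6, Kcne2, Otx2 and Slc4a5 and lies among or beside the other libraries for the other lists. A sum follows its highest genes. In hyperoxia library 3, Atp1b1 gives 47232 of the 57633 of the channels, transporters and enzymes. The rise of low genes there, such as Tmem72 (82 in that library), Cldn2 and Prr32, does not show in the sums.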

How the data were processed

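RNA of the left hippocampus of C57BL/6 mice at P14 was measured in 3 air and 3 hyperoxia (85% O2, P2 to P14) libraries, from polyA RNA with a strand-specific kit, paired-end. The submitters' processing notes list FastQC, STAR 2.5.3a, HTSeq and DESeq2, with no roles. Neither the build and annotation used nor the strand setting of the counting was given in the sources used here. The deposited signal is a normalized read count, scaled by the authors with a size factor for each library. In each library 100% of values came out as whole reads to within 0.01, and these recovered reads totalled 30384052 to 38746972 on genes. A second deposited table, the authors' own comparison of the groups (fold changes, standard errors and p-values), was not used. Symbols are those of the table. Positions, exon lengths and overlaps are from GENCODE M21 (GRCm38), which held 99.68% of the gene identifiers, and promoters are from RefSeq (GRCm38.p6).

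Genes with a mean normalized count of at least 10 (17778) were compared on log2(normalized count + 1) with limma-trend (limma 3.58.1, R 4.3.3), hyperoxia minus air, with Benjamini-Hochberg adjustment over all of them and a threshold of 0.05. A fold change on this scale understates the change of low genes. The 10 genes of the set and the gene lists were chosen with earlier results of these data known, and the set itself was not tested. Intervals are exact Poisson for reads and Clopper-Pearson for shares, at 95%. Named genes were, by rule, the 10 of the set, the 8 of highest mean in each list of other choroid plexus genes and those at 0 in a library, the 2 of highest mean in each other list (1 gene in each of 2 lists is not reported here) and the 10 nearest in profile. Col8a1, Tmem72, Mfrp, Ngp, S100a9 and the genes between Kcne2 and Clic6 were named after their values were seen. Alternatives were edgeR 4.0.16 (quasi-likelihood) and DESeq2 1.42.0 on the recovered reads, pseudocounts of 0.5 and 5, no filter and a mean of at least 50, TMM scaling, and each library left out. The limma script was tested on simulated data. Scripts used Python 3.11.15 with pandas 2.3.3 and scipy 1.17.1.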

Additional observations from a re-analysis of the deposited data

How the results depend on the processing

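Of 130 alternative values of the log2 differences of the 10 genes, 119 kept their direction and 11 turned, all 11 by leaving out libraries. The median difference, 0.44, ranged from -0.36 (without hyperoxia library 3) to 0.96 when each library was left out in turn, and was -0.14 without both libraries numbered 3, an alternative chosen after seeing the data. It was 0.98 by edgeR and by DESeq2, with Ttr at 2.59 and 2.60. On leaving out single libraries, Ttr (1.19) ranged from -0.44 to 2.23, Clic6 (0.46) from -0.53 to 1.01, Otx2 (0.33) from -0.69 to 0.86, Kcne2 (0.43) from -0.29 to 1.03, Slc4a5 (1.10) from -0.04 to 1.90 and Folr1 (0.10) from -1.07 to 1.07, with Folr1 also turning without air library 1 (-0.30) or air library 2 (-0.01). Without both libraries numbered 3, Otx2 was at -0.38, Kcne2 at -0.43 and Folr1 at -0.57. The 12.1-fold span of the set's sum ranged from 2.34 to 12.1 on leaving out single libraries and was 1.36 without both. Other choroid plexus genes called lower numbered 2 to 5 against 2 with all libraries, and those called higher 10 to 17 against 13. Genes of the 8 neighbouring lists called lower numbered 10 to 21 against 18. Over all genes, 2643 were called higher and 2782 lower, with 2779 and 2722 by edgeR, 2933 and 2678 by DESeq2, and 1454 to 3840 and 1602 to 3931 on leaving out single libraries (1639 and 1767 without both numbered 3). Leaving out a library also leaves fewer samples, and other causes were not tested. The column names, but not the labels, give both groups the numbers 1 to 3. Deviations from the group means correlated at -0.08, 0.13 and 0.10 between same-numbered libraries. Between libraries of different number they correlated from -0.29 (air library 3 with hyperoxia library 2) to 0.26 (air library 3 with hyperoxia library 1). With 3 libraries per group these values cannot decide whether an equal number stands for anything shared. With the number as a replicate block, added after seeing the data, the median difference stayed at 0.44, 16 other choroid plexus genes were called higher and 2 lower, the neighbouring lists had 25 higher and 21 lower, and 3098 of all genes were higher and 3113 lower. Normalized counts of 3.54 to 13.2 for Folr1, Slc4a5 and Otx2 outside the libraries numbered 3 limit their precision.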
